A study of Mus musculus with 5 samples.

Results

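The 9 genes *Dcn*, *Bgn*, *Lum*, *Ogn*, *Fbln1*, *Islr*, *Ptgds*, *Slc6a13* and *Pdgfra* mark the fibroblasts that lie along larger brain vessels and the cells of the leptomeninges, the thin membranes that cover the brain. The rule lists them by name and uses no measured value, although the list was drawn up with earlier results of these data known, and all 9 were found among the 34615 gene symbols of the deposited table. Microvascular fragments were isolated from the brains of 5 mice, 3 WT and 2 Ins2-AKITA, and their RNA was sequenced with 1 library per mouse. All were males on a C57BL6 background, between 26 and 38 weeks old. The Ins2-AKITA mice carried 1 mutated copy of the insulin 2 gene, through which they become hyperglycemic, and the WT mice were littermates that carried none. Brain tissue was digested with collagenase and vessel fragments were pulled out with beads bearing an antibody to PECAM1, an endothelial surface protein, so the capture selected for endothelium and not for fibroblasts. The comparison between the genotypes asked what long-lasting hyperglycemia changes in the RNA of the brain vasculature.

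Perivascular fibroblasts sit between the vessel wall and the surrounding brain around arterioles and venules, and they share much of their gene expression with the fibroblasts of the leptomeninges. Both lay down extracellular matrix, among it collagens and the small leucine-rich proteoglycans that bind to collagen fibrils. Several of the genes used to recognise them are also active in other brain cells: *Pdgfra* in oligodendrocyte precursors, and *Ptgds* in oligodendrocytes and the choroid plexus. In such bulk samples, fewer cells of a type and less RNA per cell cannot be told apart.

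Values are FPKM, fragments scaled to exon length and library size, so levels can be compared between genes per length. The fragments behind them were estimated from the steps between low values as 1167679, 1319609 and 2848191 in WT replicates 1, 2 and 3, and as 1127015 and 1286008 in Ins2-AKITA replicates 1 and 2. Protein-coding genes made up between 3.09% and 27.5% of the summed FPKM of a mouse, lowest in WT replicate 1 and highest in Ins2-AKITA replicate 2. Genotypes were compared with limma on log2(FPKM + 1) over the 16286 genes with a mean FPKM of at least 1, a scale that understates the change of low genes. Of these genes, 4 (0.0246%) passed an adjusted p of 0.05.

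None of the 8 members that could be tested passed that threshold, and none had an unadjusted p under 0.05, against 4.46% of all genes tested. *Lum*, the 9th member, had a mean under 1 FPKM and was not tested. Differences of the genotype means (Ins2-AKITA minus WT) ran from -0.80 for *Slc6a13* to 0.35 for *Dcn* on the log2 scale. Their median was -0.26, with 3 positive and 5 negative, beside a median of -0.03 for all genes tested, of which 7568 were positive and 8718 negative. All 8 became positive when each mouse was rescaled to the same FPKM sum, which moved the median of all genes to 1.07 and that of the members to 1.11. The medians of the 6 pathway lists given with the members ran from 0.68 to 1.65 under that rescaling, so the negative medians given below turn positive with it. *Dcn* and *Pdgfra* were the 2 members with both Ins2-AKITA mice above every WT mouse, an order found in 9.24% of all genes tested. No member had both Ins2-AKITA mice below every WT mouse, which held for 10.3% of genes.

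**Figure D1:**
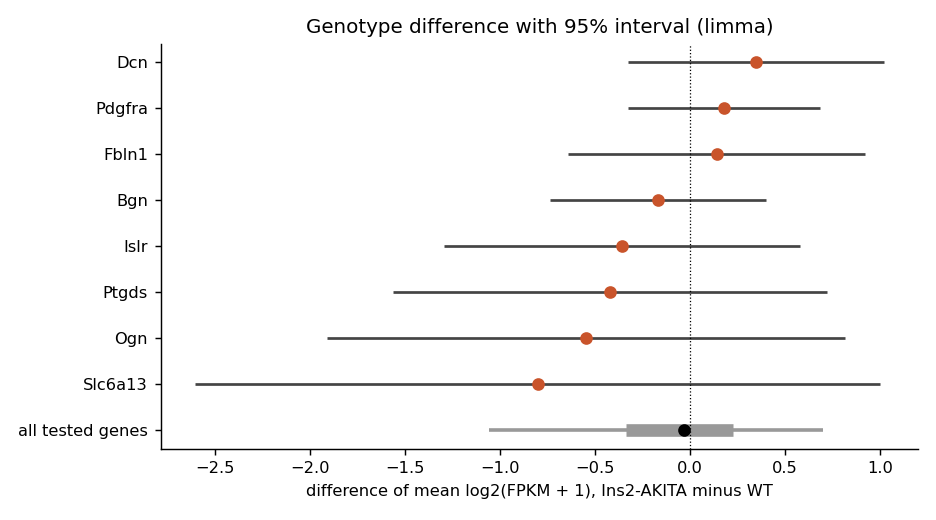
Difference of mean log2(FPKM + 1) between Ins2-AKITA and WT mice for the 8 members tested, with 95% intervals from limma, ordered by size. The bottom row shows all 16286 genes tested: the dot is their median (-0.03), the thick bar spans the 25th to 75th percentile (-0.34 to 0.22) and the thin bar the 5th to 95th (-1.06 to 0.70). Every member's interval includes 0.

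*Ptgds* stood far above the others with a mean of 292 FPKM over the 5 mice, higher than 98.7% of the genes tested, and supplied between 74.8% and 88.2% of the members' summed FPKM in each mouse. *Pdgfra* and *Bgn* came next with means of 16.1 and 15.5 FPKM, and their ranges over the 5 mice overlapped. Below them and without overlap stood *Dcn* at 8.26 FPKM. From there on each gene overlapped the next over the 5 mice: *Fbln1* at 6.33, *Slc6a13* at 3.97, *Islr* at 3.91, *Ogn* at 2.85 and *Lum* at 0.726 FPKM.

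**Figure D2:**
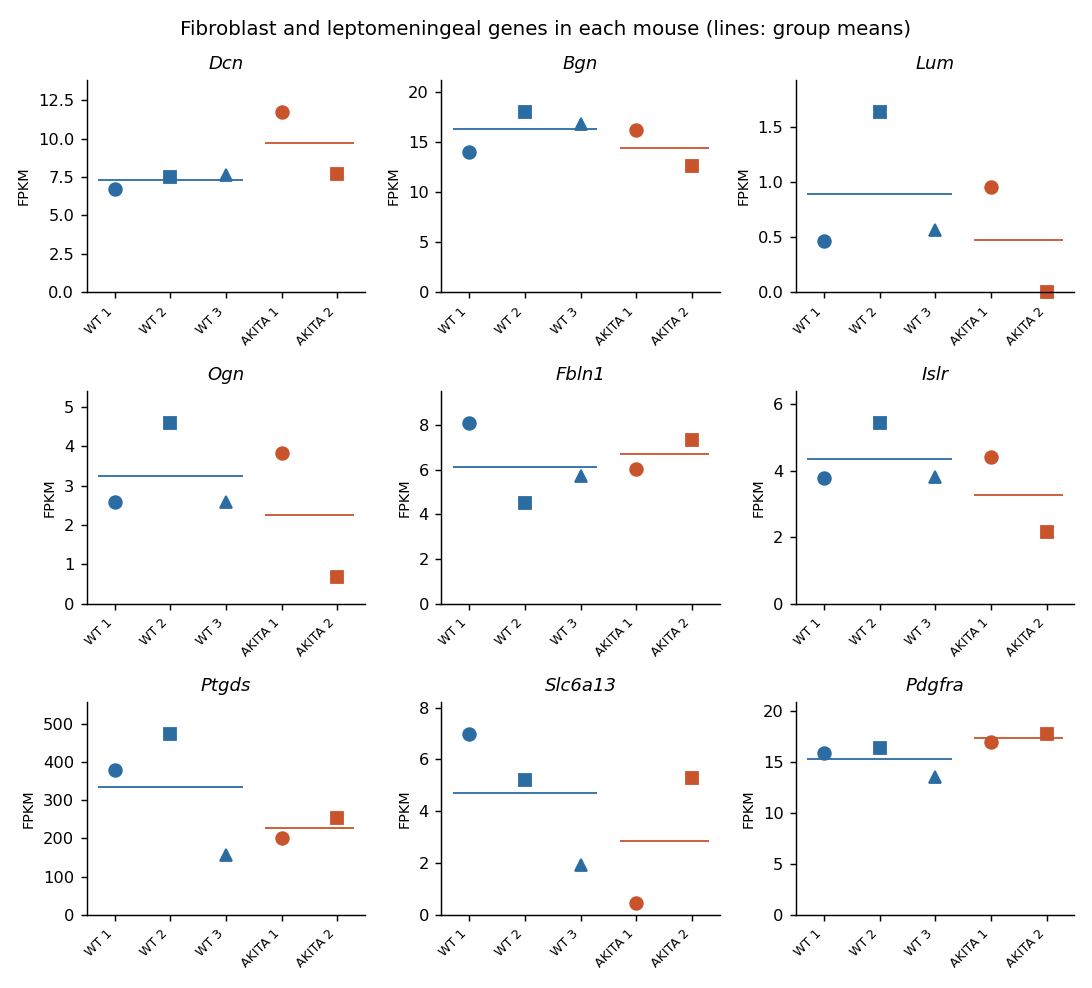
FPKM of the 9 members in each mouse, with WT replicates 1 to 3 in blue and Ins2-AKITA replicates 1 and 2 in orange. Horizontal lines are group means and each panel has its own scale starting at 0. The genotypes are separated only for *Dcn* and *Pdgfra*, and *Lum* is listed at 0 in Ins2-AKITA replicate 2.

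Of the proteoglycans, decorin (*Dcn*, ENSMUSG00000019929, NCBIM37 chr10:96942245-96980777, plus strand) binds collagen fibrils and sequesters growth factors of the TGF-beta family. Its level was 6.71, 7.50 and 7.65 FPKM in the WT mice and 11.7 and 7.71 FPKM in the Ins2-AKITA mice, or 7.29 ± 0.507 (SD, n = 3) against 9.71 ± 2.83 (SD, n = 2). The separation was narrow. Ins2-AKITA replicate 2 lay just above WT replicate 3, and replicate 1 was the one mouse that stood apart. The log2 difference was 0.35 (standard error 0.28, 95% interval -0.33 to 1.02, limma adjusted p = 0.901), and the two-sided exact permutation p was 0.1, the smallest that 3 mice against 2 allow. Without Ins2-AKITA replicate 1 the difference was 0.07. An estimated 12 to 33.4 fragments per mouse lie behind these values. For Ins2-AKITA replicate 1, with 20 fragments, the exact 95% Poisson interval of the level ran from 7.08 to 17.9 FPKM, which includes 2 of the 3 WT values. Such intervals cover counting error only.

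Biglycan (*Bgn*, ENSMUSG00000031375, chrX:70728941-70741272, plus strand) is the closest relative of decorin. It was measured at 14.0, 18.0 and 16.8 FPKM in WT and 16.2 and 12.6 FPKM in Ins2-AKITA mice. One Ins2-AKITA mouse lay within the WT range and the other below it. Means were 16.2 ± 2.04 (SD, n = 3) and 14.4 ± 2.55 (SD, n = 2), a log2 difference of -0.17 (standard error 0.24, 95% interval -0.74 to 0.40, limma adjusted p = 0.923). With an interval no wider than a fold of 0.600 to 1.32, it was after *Pdgfra* the most tightly measured of the members tested.

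Lumican (*Lum*, ENSMUSG00000036446, chr10:97028135-97035337, plus strand), which regulates the spacing of collagen fibrils and is a defining transcript of fibroblasts outside the brain as well, was close to the limit of the libraries. It was at 0.463, 1.64 and 0.570 FPKM in WT and at 0.959 and 0 FPKM in Ins2-AKITA mice. These values correspond to 1, 4 and 3 fragments in the WT mice, and to 2 and 0 fragments in the Ins2-AKITA mice. In the mouse listed at 0, a count of 0 allows a level of up to 1.26 FPKM (3 fragments), and no fold change is given.

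Osteoglycin (*Ogn*, ENSMUSG00000021390, chr13:49703440-49719869, plus strand) was first isolated from bone and is made by many fibroblasts. It had 2.59, 4.58 and 2.58 FPKM in WT and 3.83 and 0.672 FPKM in Ins2-AKITA mice. Ins2-AKITA replicate 1 lay inside the WT range and replicate 2 well below it. The low value rests on an estimated 2 fragments, with an exact 95% Poisson interval from 0.0814 to 2.43 FPKM that ends below all 3 WT levels as measured. The genotype difference was -0.55 (standard error 0.56, 95% interval -1.91 to 0.82, limma adjusted p = 0.902), and it changed sign to 0.22 without Ins2-AKITA replicate 2. *Ogn* lies within the transcribed span of *Cenpp* on the opposite strand, and whether the counting used strand is not given in the sources used here.

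The members of this family lie in chromosomal clusters. *Dcn* and *Lum* are neighbours on chromosome 10, 47.4 kb apart with no protein-coding gene between them, followed by *Kera* and *Epyc* within a span of 203 kb. *Ogn* is the last of 4 family genes in a row on chromosome 13, after *Ecm2*, *Aspn* and *Omd*, in 120 kb. Levels within a cluster were far from even: *Dcn* exceeded *Lum* in each of the 5 mice, and *Kera*, a cornea gene named here after its values were seen, was listed at 0 in all of them.

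Among 12 further small leucine-rich proteoglycan genes, 7 could be tested and 0 passed in either direction. Their median log2 difference was -0.18, with 2 positive and 5 negative, and it was -0.03 without WT replicate 2 and 0.17 without Ins2-AKITA replicate 2. *Prelp*, which anchors basement membranes to connective tissue, was the most abundant member of the family, with 23.7, 23.3 and 25.7 FPKM in WT and 22.7 and 13.4 FPKM in Ins2-AKITA mice. Both Ins2-AKITA mice were below the WT mice, 1 of them by a small margin, with a log2 difference of -0.45 (standard error 0.26, limma adjusted p = 0.896). It was -0.09 without Ins2-AKITA replicate 2 and -0.81 without replicate 1. *Podn* had the highest difference at 0.31 (standard error 0.36, limma adjusted p = 0.906), *Aspn* differed by 0.10 and *Fmod* by -0.25.

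**Figure D3:**
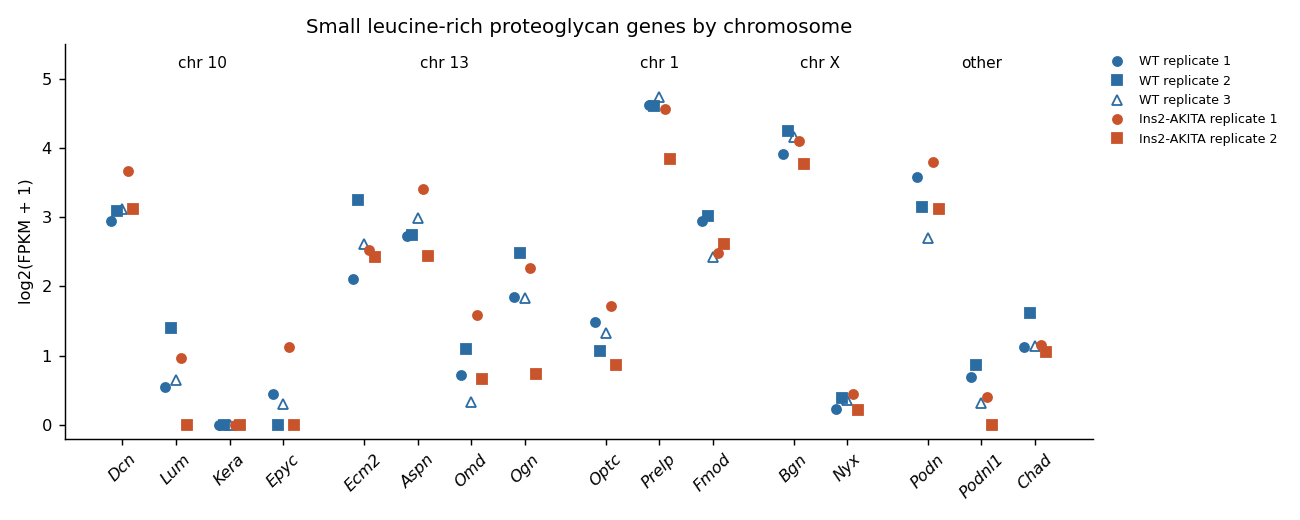
log2(FPKM + 1) of 16 small leucine-rich proteoglycan genes in each mouse, grouped by chromosome, with WT mice in blue and Ins2-AKITA mice in orange. *Prelp* and *Bgn* are the highest and *Kera* is listed at 0 in all 5 mice. Ins2-AKITA replicate 2 (orange square) is alone the lowest mouse for *Ogn*, *Prelp*, *Bgn*, *Aspn*, *Lum*, *Chad*, *Optc*, *Nyx* and *Podnl1*.

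Fibulin 1 (*Fbln1*, ENSMUSG00000006369, chr15:85036379-85116965, plus strand) is a calcium-binding glycoprotein of basement membranes and elastic fibres. It was at 8.07, 4.51 and 5.71 FPKM in WT and 6.04 and 7.31 FPKM in Ins2-AKITA mice. Both Ins2-AKITA mice fell inside the WT range. The means of 6.10 ± 1.81 (SD, n = 3) and 6.68 ± 0.896 (SD, n = 2) gave a log2 difference of 0.14 (standard error 0.32, 95% interval -0.64 to 0.92, limma adjusted p = 0.958). Without WT replicate 2 it was -0.03.

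Of the 6 other fibulin genes, 5 could be tested and 0 passed, with a median log2 difference of -0.43, 1 positive and 4 negative. The median was -0.12 without WT replicate 2, and -0.06 over the genes left with a filter at 5 FPKM. *Fbln5*, needed for elastic fibre assembly, had the lowest difference, with 5.96, 3.92 and 5.57 FPKM in WT and 3.32 and 2.22 FPKM in Ins2-AKITA mice. Both Ins2-AKITA mice lay under all WT mice, at -0.71 on the log2 scale (standard error 0.35, limma adjusted p = 0.896). *Efemp1*, by contrast, was pulled in opposite directions by the mice: 3.30, 8.63 and 3.30 FPKM in WT and 9.46 and 2.84 FPKM in Ins2-AKITA, a difference of 0.17 that ran from -0.55 to 0.90 as single mice were left out. *Efemp2* differed by -0.66 and *Fbln2* by -0.06.

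*Islr* (ENSMUSG00000037206, chr9:58004080-58006949, minus strand) encodes a secreted leucine-rich protein with an immunoglobulin domain that is found in mesenchymal cells. It had 3.78, 5.43 and 3.81 FPKM in WT and 4.40 and 2.15 FPKM in Ins2-AKITA mice, from an estimated 5.2 to 20.4 fragments. The pattern over the mice was that of *Ogn* and *Bgn*, with Ins2-AKITA replicate 1 inside the WT range and replicate 2 below it. The log2 difference was -0.36 (standard error 0.39, 95% interval -1.30 to 0.58, limma adjusted p = 0.902), and it was 0.03 without Ins2-AKITA replicate 2.

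Prostaglandin D2 synthase (*Ptgds*, ENSMUSG00000015090, chr2:25322229-25325566, minus strand) makes prostaglandin D2 and is secreted into the cerebrospinal fluid as a carrier of small lipophilic molecules. Its level was 378, 472 and 156 FPKM in the WT mice and 202 and 253 FPKM in the Ins2-AKITA mice. The WT mice spread over a 3.02-fold range, and both Ins2-AKITA mice fell inside it. Group means were 335 ± 162 (SD, n = 3) and 228 ± 36.3 (SD, n = 2), a log2 difference of -0.42 (standard error 0.47, 95% interval -1.57 to 0.72, limma adjusted p = 0.902, two-sided exact permutation p = 0.5). WT replicate 3 set this spread. Without it the difference was -0.90, with an unadjusted limma p of 0.0121. In that fit 1426 of 16376 genes had an unadjusted p under 0.05. The adjusted limma p of *Ptgds* was 0.547, the smallest of any member in that fit. Without WT replicate 2 the difference was -0.10.

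The other sources of *Ptgds* transcripts varied over the same mice. All 7 choroid plexus epithelium markers were above 0 in every mouse, and their sum was 1858, 2107 and 707 FPKM in WT and 1861 and 1001 FPKM in Ins2-AKITA mice, led by *Ttr*, the thyroid hormone carrier of that tissue. WT replicate 3 was lowest for both *Ptgds* and the choroid plexus sum, and WT replicate 2 highest for both. The Ins2-AKITA mice had the opposite order: replicate 1 had the higher choroid plexus sum but the lower *Ptgds*, 202 against 253 FPKM. Most of the sum was *Ttr*, with 1785, 1993 and 669 FPKM in WT and 1790 and 960 FPKM in Ins2-AKITA mice. All 7 oligodendrocyte markers were above 0 in every mouse as well, with a sum of 1936 to 2629 FPKM in WT and 2110 to 2323 FPKM in Ins2-AKITA mice, highest in WT replicate 3. The part of either cell type in the *Ptgds* values was not tested.

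In the prostaglandin D2 pathway, 3 of 5 other genes could be tested and 0 passed, with a median log2 difference of 0.74, 2 positive and 1 negative. Single mice set its size: it was 0.24 without WT replicate 1 and 0.26 without Ins2-AKITA replicate 2. *Ptgs1*, the constitutive cyclooxygenase, had 4.78, 6.04 and 9.21 FPKM in WT and 7.94 and 16.5 FPKM in Ins2-AKITA mice, a difference of 0.74 (standard error 0.40, limma adjusted p = 0.896). *Hpgds*, the hematopoietic form of the synthase, differed by 0.80 (standard error 0.62, limma adjusted p = 0.901) and *Ptgs2*, the inducible cyclooxygenase, by -0.69 (standard error 0.49, limma adjusted p = 0.897). *Ptgs1* and *Ptgs2* overlapped between the genotypes. *Hpgds* did not, but 1 WT mouse was at 0.263 FPKM and the other two at 2.94 and 3.13, close under the Ins2-AKITA values of 3.65 and 3.87, and without the low WT mouse (replicate 1) the difference was 0.24. The receptor gene *Ptgdr* was at or below 0.525 FPKM in all mice.

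*Slc6a13* (ENSMUSG00000030108, chr6:121250245-121287751, plus strand) encodes the GABA and taurine transporter GAT2, which in brain is found mainly in the leptomeninges. It had the widest spread of the members tested, with 6.96, 5.22 and 1.92 FPKM in WT and 0.442 and 5.29 FPKM in Ins2-AKITA mice. One mouse of each genotype was low and the remaining 3 lay between 5.22 and 6.96 FPKM. At most 1 fragment lies behind the value in Ins2-AKITA replicate 1, whose exact 95% Poisson interval ran from 0.0112 to 2.46 FPKM. The difference of -0.80 had the largest standard error of the 8, 0.75 (95% interval -2.61 to 1.00, limma adjusted p = 0.902), and it changed sign to 0.26 without that mouse.

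*Slc6a12*, a betaine and GABA transporter gene 5.34 kb downstream of *Slc6a13*, was too low to test. Named here after its values were seen, it had 2.73, 0.626 and 1.17 FPKM in WT and was listed at 0 in both Ins2-AKITA mice. Its fragments were not estimated, so the level that a listed 0 still allows is unknown and no loss can be read from it. Of the 5 other carriers of GABA, taurine and creatine in this family, 4 could be tested and 0 passed, with a median log2 difference of 0.07. They ran from -0.04 for the taurine transporter *Slc6a6* to 0.27 for the astrocyte GABA transporter *Slc6a11*.

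*Pdgfra* (ENSMUSG00000029231, chr5:75548316-75594229, plus strand), the receptor that responds to PDGF-A and PDGF-C, was the steadiest of the members tested. It was at 15.8, 16.4 and 13.5 FPKM in WT and 17.0 and 17.7 FPKM in Ins2-AKITA mice. Both Ins2-AKITA mice lay above all WT mice, replicate 1 by a small margin. Group means were 15.3 ± 1.52 (SD, n = 3) and 17.3 ± 0.516 (SD, n = 2), a log2 difference of 0.18 (standard error 0.21, 95% interval -0.33 to 0.68, limma adjusted p = 0.908, two-sided exact permutation p = 0.2). The interval corresponds to a fold of 0.796 to 1.61 on the log2(FPKM + 1) scale. With 117 to 245 estimated fragments per mouse, it was also among the more deeply counted members.

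Oligodendrocyte precursors use the same gene. All 8 markers of these cells were above 0 in every mouse. Their sum, not rescaled to the same FPKM sum, was 87.7 to 93.2 FPKM in Ins2-AKITA mice against 98.7 to 103 FPKM in WT. By gene, both Ins2-AKITA mice were below all WT mice for 2 of the 8 and above them for 1. Such orders were found in 10.3% and 9.24% of all genes tested. Within the list the lineage factor *Sox10* differed by -0.64 and *Olig2* by 0.50 on the log2 scale (standard errors 0.26 and 0.22, limma adjusted p = 0.896 for both). The part of precursors in the *Pdgfra* values was not tested.

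The ligands and the other receptor of this pathway did not pass either: 5 of 5 were tested and 0 called, with a median of -0.02, 1 positive and 4 negative, that ran from -0.25 without WT replicate 1 to 0.04 without WT replicate 2. *Pdgfrb*, the receptor of pericytes, was at 17.0, 20.8 and 14.8 FPKM in WT and 19.3 and 15.0 FPKM in Ins2-AKITA mice, a log2 difference of -0.02. *Pdgfb*, the endothelial ligand that recruits pericytes, differed by -0.43 (standard error 0.46, limma adjusted p = 0.902), and *Pdgfd* by -0.13. *Pdgfa* split the Ins2-AKITA mice, with 26.1, 20.1 and 29.2 FPKM in WT but 12.4 and 63.9 FPKM in Ins2-AKITA, below and above all WT mice. Its difference of 0.19 (standard error 0.63) turned to -0.95 without Ins2-AKITA replicate 2.

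Seen by mouse, the members did not move as a block. WT replicate 2 was the highest mouse for 5 of the 9, and Ins2-AKITA replicate 2 the lowest for 4, *Lum*, *Ogn*, *Bgn* and *Islr*, all of them below every WT mouse. How often these mice were highest or lowest over all genes tested was not counted. In Ins2-AKITA replicate 2 the values of *Lum*, *Ogn* and *Islr* rest on an estimated 0, 2 and 5.2 fragments. The same mouse was above every WT mouse for *Dcn* and *Pdgfra*. Ins2-AKITA replicate 1 was below every WT mouse for *Slc6a13* alone. Without *Ptgds*, the members summed to between 52.6 and 63.2 FPKM in WT and between 53.4 and 60.5 FPKM in Ins2-AKITA mice, so that the sums of both Ins2-AKITA mice lay inside the WT range.

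**Figure D4:**
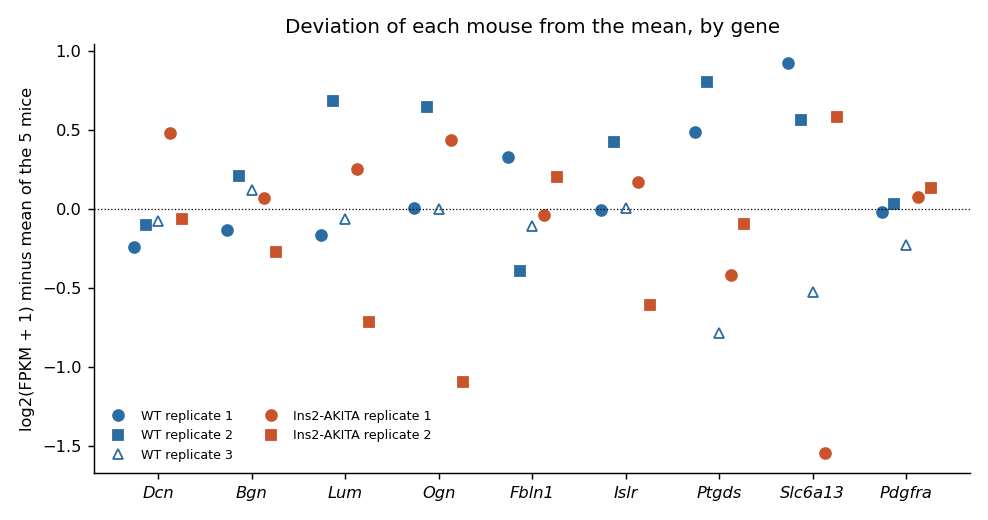
log2(FPKM + 1) of each member in each mouse, minus the mean of the 5 mice for that gene. WT mice are blue, Ins2-AKITA mice orange. The largest deviation of *Pdgfra* is -0.23 in WT replicate 3, and deviations reach -1.09 for *Ogn* in Ins2-AKITA replicate 2 and -1.54 for *Slc6a13* in Ins2-AKITA replicate 1.

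A wider list of 20 other fibroblast and leptomeningeal genes gave the same count: 16 could be tested, 0 passed and 0 had an unadjusted p under 0.05. Their median log2 difference was -0.22, with 3 positive and 13 negative. The most abundant were *Apod*, a lipid carrier of 217, 108 and 92.1 FPKM in WT and 130 and 89.7 FPKM in Ins2-AKITA mice, and the growth factor *Igf2*, with 29.3, 56.4 and 26.5 against 34.7 and 22.9 FPKM. Both overlapped between the genotypes. The proline transporter gene *Slc6a20a* differed by -0.30, *Igfbp2*, which binds insulin-like growth factors, by 0.18, and *Crabp2*, a carrier of retinoic acid, by -0.69 (standard error 0.81, limma adjusted p = 0.909), with 1 mouse of each genotype at 0. In the 16 tested, both Ins2-AKITA mice were above all WT mice for 1 gene and below them for 3, beside 9.24% and 10.3% of all genes tested. Of the 20, 16 were above 0 in every mouse. *Col1a1* and *Col1a2*, the fibrillar collagen genes most used to define fibroblasts and named here after their values were seen, were present but low, at 1.84 to 2.96 FPKM and 3.49 to 5.56 FPKM.

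For some of the other cells in the fragments, marker sums in FPKM as deposited separated the genotypes. The marker lists were not rescaled to the same FPKM sum, a step that moved the median log2 difference of all genes to 1.07. Whether the separations hold under it was not tested. All 6 arterial smooth muscle markers were above 0 in every mouse, and their sum was 359 to 405 FPKM in WT and 233 to 292 FPKM in Ins2-AKITA mice. All 6 astrocyte markers were above 0 too, with sums of 1494 to 2198 and 2609 to 2990 FPKM. These 2 sums did not overlap between the genotypes. Both Ins2-AKITA mice were below all WT mice for 5 of the 6 smooth muscle markers, beside 10.3% of all genes tested. Both were above all WT mice for 3 of the 6 astrocyte markers, beside 9.24%, while *Gfap*, *Aqp4* and *Gja1* overlapped. Most of the astrocyte sum was *Slc1a2*, with 1013 to 1507 FPKM in WT and 1897 to 2110 FPKM in Ins2-AKITA mice. Sums for endothelial cells (306 to 482 against 244 to 307 FPKM), pericytes (185 to 227 against 161 to 202) and neurons (601 to 693 against 602 to 702) overlapped. The endothelial overlap was narrow. Both Ins2-AKITA mice were below all WT mice for 2 of 8 endothelial, 2 of 7 pericyte and 1 of 5 neuron markers. That order held for 10.3% of all genes tested. The reverse held for 0 of these markers, beside 9.24%. Perivascular macrophage markers were scarce, with sums of 3.53 to 15.2 FPKM in WT and 4.43 to 12.2 FPKM in Ins2-AKITA mice, and only 3 of 6 could be tested. None of the genes in these lists passed an adjusted p of 0.05 in limma. Their most extreme differences were 1.03 for the astrocyte gene *Aldh1l1* (adjusted p = 0.804), -1.16 for the pericyte gene *Ndufa4l2* and -0.98 for the smooth muscle gene *Cnn1* (adjusted p = 0.896 for both).

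The members were also set against the vessel wall. Without *Ptgds* their sum was 19.1%, 13.1% and 17.0% of the endothelial sum in the WT mice, against 19.7% and 21.9% in the Ins2-AKITA mice. Of the pericyte sum it was 26.7%, 27.8% and 28.5% against 30.0% and 33.2%. Neither share overlapped between the genotypes, the first by a small margin. With *Ptgds* included both did: the members summed to 142%, 111% and 67.3% of the endothelial sum in the WT mice against 85.4% and 126%, and to 113% to 235% of the pericyte sum against 130% and 191%. They were chosen after the values were seen and carry no test, and the members' own sums overlapped. The part of the vessel wall cells in the members' values was not tested.

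**Figure D5:**
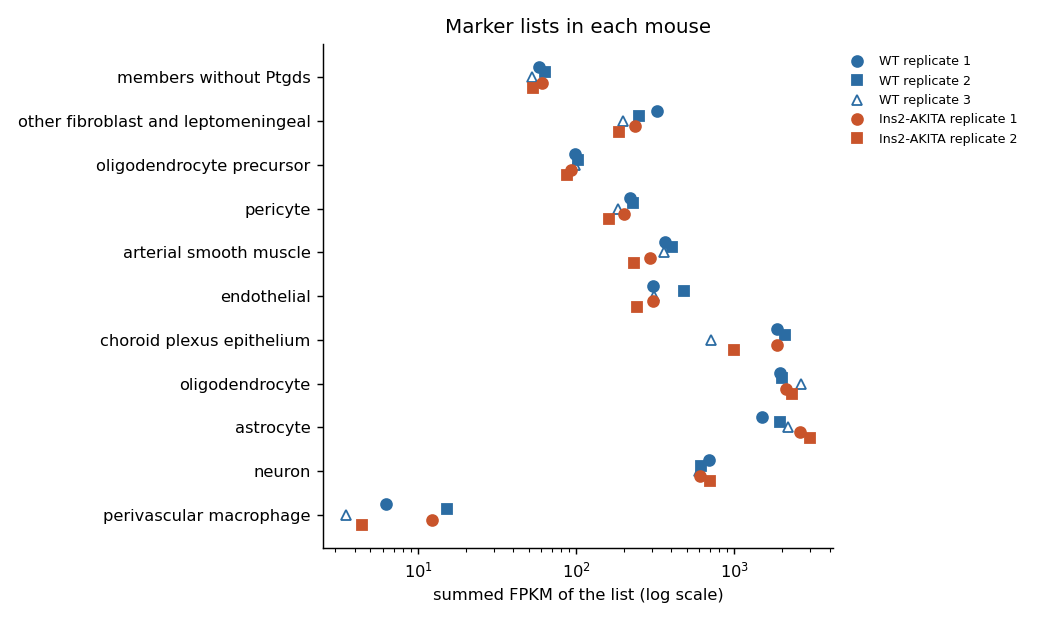
Summed FPKM of each marker list in each mouse, on a log scale, with WT mice in blue and Ins2-AKITA mice in orange. The values are not rescaled to the same FPKM sum. On this scale the members without *Ptgds* overlap between the genotypes. Arterial smooth muscle and oligodendrocyte precursor sums are lower and astrocyte sums higher in both Ins2-AKITA mice.

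The mean profile of the 8 members tested, each centred on its own mean, stood on the log2 scale at 0.17, 0.27 and -0.20 for the WT mice, and at -0.09 and -0.15 for the Ins2-AKITA mice. Of 11258 other genes with a mean of at least 5 FPKM, *Eno2*, *Gramd1a*, *Aptx*, *Setbp1* and *H2afy* came closest to it over the 5 mice, at Euclidean distances of 0.0497 to 0.0908. The members themselves lay farther from their own mean profile, from 0.454 for *Pdgfra* to 1.84 for *Slc6a13*. That contrast is no test of a shared pattern. The 5 genes were picked for the smallest distance, and single members vary more than the mean over 8 of them. None of the 5 is in the fibroblast or other lists used here.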

How the data were processed

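RNA from PECAM1-captured brain microvascular fragments was depleted of ribosomal RNA and sequenced from stranded total RNA libraries. The authors mapped reads to NCBIM37 with TopHat2 2.0.4, removed duplicates with Picard 1.92 and tested with Cufflinks 2.2.1; the program behind the single-mouse values and the Ensembl release are not given in the sources used here. The deposited values are FPKM per Ensembl gene and mouse, unpooled. Removing duplicates can lower abundant short genes such as *Ptgds*.

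Of 37982 identifiers, 37197 matched GENCODE vM1 (NCBIM37) and 785 did not. Values sharing a symbol were summed, and the 16286 symbols that averaged 1 FPKM or more entered limma 3.58.1 (R 4.3.3, eBayes with trend) on log2(FPKM + 1), genotype only, two-sided, with Benjamini-Hochberg adjustment. Replicates are separate mice. Exact permutation tests used all 10 splits. Fragments were estimated in Python 3.11.15 from steps between low values, of which 97.7% to 98.2% per mouse fell within 0.05 of a whole number; where a gene has several transcripts, the longest was used and the figure is an upper estimate. No 2 libraries shared values above 0. The fit was tested on simulated normal data with changes larger than the difference of any member. That test does not show whether differences as small as those of the members can be found.

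The rule for naming genes took the 9 members, the 4 most abundant and the 2 extreme genes of each pathway or marker list, and the 5 genes nearest to the members' mean profile. Of the marker lists, a few such genes are named beside the sums, and 1 gene the rule took is not reported here. Genes outside the rule are named for their position or, as stated there, after their values were seen. Members and lists were chosen with earlier results of these data known. The 15 alternatives changed the pseudocount, filter, scaling, prior, replicate block, symbol summing or left out 1 mouse.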

Additional observations from a re-analysis of the deposited data

How the results depend on the processing

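No member passed the adjusted p threshold under any of the 15 alternatives. With a filter at a mean of 5 FPKM, *Ogn*, *Islr* and *Slc6a13* gave no value and the members' median over the 5 left was 0.14. TPM moved it to 1.11 and all genes to 1.07, and leaving out single mice gave -0.28 to 0.025, the highest without Ins2-AKITA replicate 2. Over all genes, 0 were called higher and 4 lower. These counts became 34 and 1 with no filter, 58 and 30 with TPM, and 1 and 2 with a constant prior. The filter at 5 gave 2 lower, and single mice left out gave 0 to 10 higher and 2 to 10 lower, with 10 higher without Ins2-AKITA replicate 2 and 10 lower without WT replicate 3.

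TPM turned the sign of *Ogn* (0.24), *Bgn* (1.14), *Islr* (0.51), *Ptgds* (1.29), *Slc6a13* (0.57), *Crabp2* (0.21), *Fbln5* (0.31), *Pdgfb* (0.95), *Prelp* (0.98), *Ptgs2* (0.17) and *Slc6a6* (1.56), all read against its shift of 1.07. Leaving out single mice gave ranges that crossed 0 for *Ogn* (-1.31 to 0.22), *Bgn* (-0.34 to 0.00050), *Fbln1* (-0.029 to 0.33), *Islr* (-0.75 to 0.031), *Slc6a13* (-1.87 to 0.26), *Efemp1* (-0.55 to 0.90), *Podn* (-0.022 to 0.65), *Pdgfa* (-0.95 to 1.33), *Pdgfb* (-0.99 to 0.14) and *Slc6a6* (-0.18 to 0.17). *Dcn* (0.074 to 0.62), *Pdgfra* (0.099 to 0.23) and *Ptgds* (-0.90 to -0.10) kept their sign. Without an Ins2-AKITA mouse, the remaining one is assumed to vary like the WT mice.

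The replicate numbers were not shown to pair the mice, with correlations of deviations of 0.051 and -0.034 over 2 pairs. In a fit with the replicate block, which leaves WT replicate 3 without a partner, no member was called, the counts were 0 higher and 5 lower, *Ptgds* differed by -0.90 (limma adjusted p = 0.603) and *Efemp1* turned to -0.021.

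Depth limits the low members most: *Lum*, *Ogn* and *Slc6a13* rest on 0 to 17 fragments per mouse.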
